A study of Mus musculus with 5 samples.

Results

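The joint lubrication and pericellular matrix system, as 9 of the 27998 genes listed in the deposited matrices, was followed in single cells of the mouse temporomandibular joint (TMJ) disc. The genes were taken by symbol: Prg4 (lubricin) and Creb5, a transcription factor of synovium and superficial cartilage; Has1 and Has2, hyaluronan synthases; Cd44, the main hyaluronan receptor; Tnfaip6 (TSG-6), which moves protein chains onto hyaluronan; and Acan (aggrecan), Vcan (versican) and Hapln1 (link protein), which bind hyaluronan to form aggregates. Lubricin is a mucin-like glycoprotein that coats joint surfaces and lowers friction between them. Hyaluronan is a long polysaccharide made at the plasma membrane from 2 sugar nucleotides; lining fibroblasts release it into the synovial fluid, and in cartilage and fibrocartilage it is the backbone on which aggrecan, held by link protein, swells and bears load. Versican is the related proteoglycan of looser and younger matrices. The disc is a fibrocartilage plate between the condyle and the temporal bone, and a synovial membrane covers its attachments.

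The 5 libraries compared were 10x Genomics 3′ libraries, all labelled as wild-type C57BL/6 mice: discs of unoperated animals at 3 days (3 d), 3 weeks (3 w), 16 weeks (16 w) and 78 weeks (78 w) after birth, and injured discs. The age of the 78 w library is the one in the labels; the name of its deposited file gives 16 months instead. For the injury, the anterior band of the right disc was pinched with needles (labels) or punctured with a needle (the methods of the study) in mice aged 5 weeks, and the disc was collected 2 weeks later, at 7 weeks. The methods describe this injury in Myh11-CreER; Tm reporter mice, whereas the label of the injured library gives WT, so the genotype behind that library is uncertain. The 3 d library came from 1 pooled suspension of male and female pups and the other stages from males, so sex and stage cannot be told apart at 3 d. No unoperated library of 7 weeks is named, so the injured library was set beside 3 w and 16 w, and injury, age and library cannot be told apart. Each condition was 1 library, so no test between conditions was possible. A level is the sum of the unique molecular identifiers (UMIs) of a gene in all cells of a class, scaled to 1000000 UMIs of those cells (CPM); brackets give exact 95% intervals, which cover counting error only. A gene is called higher or lower where the ratio of 2 levels was at least 2 or at most 0.5 and the group with the higher level held at least 100 UMIs of it. Because 3′ counts give no common scale between genes, each gene was compared only with itself.

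After filtering, 51688 cells remained, 8467 to 14959 per library. Clusters with fibroblast markers gave 41403 stromal cells. Cells with a UMI of 3 or more of the 6 synovial lining genes Clic5, Tspan15, Col22a1, Slurp1, Calb2 and Krtdap were taken as lining cells: 459 at 3 d, 70 at 3 w, 142 at 16 w, 293 at 78 w and 100 in the injured library, 1064 in all. From 52.8% (16 w) to 81.0% (injured) of them fell in the cluster led by those genes. Cells of that cluster with fewer than 3 of the genes were placed in neither class. They were 68 of 337, 18 of 70, 12 of 87, 40 of 271 and 86 of 167 cells, from 3 d to the injured library. In the injured library their median depth was 1773.5 UMIs, against 5224 in lining cells. The part of depth in this selection was not tested. Clusters were formed without the 9 members and the other pathway genes described below. The 6 lining genes were not excluded from the clustering, so the overlap of cluster and 3-gene rule is not independent. At 3 d and 16 w, 166 and 65 lining cells lay in stromal clusters. The summed endothelial markers of all lining cells reached 253 CPM at 3 d, against 11.6 to 32.8 CPM in stromal cells. Their summed macrophage markers reached 721 CPM at 3 w, where 4 of the 70 cells lay in macrophage clusters. Summed mural markers reached 745 CPM in lining cells at 78 w, against 37.4 CPM in stromal cells. There 1 of the 293 lining cells lay in mural clusters. Endothelial cells held 84.1 to 219 CPM of the summed lining genes, against 29.6 to 83.1 CPM in stromal cells. With lining cells taken only from stromal or lining clusters, 12 of 99 ratios moved outside their counting interval and 87 stayed within it. That step keeps mixed droplets that lie inside those clusters, so the part of mixed droplets in the results was not tested. Median depth per stromal cell was 8428 to 13221 UMIs in the unoperated libraries and 3582 in the injured one. Lining cells were deeper than stromal cells in each library, 9926 against 8428 UMIs at 3 d and 5224 against 3582 in the injured library. Library pairs shared 19 to 39 cell barcodes, at most 0.416% of the smaller library.

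The endothelial level of each gene was taken as the level that free RNA gives. For Prg4 it was uneven between cells. The tenth of endothelial cells with the most Prg4 held 100%, 96.2%, 94.2%, 93.0% and 84.1% of it, from 3 d to the injured library. At 16 w the median endothelial cell held 81.2 CPM of Prg4, against 1761 CPM for the class. With equal weight for every cell, stromal over endothelial Prg4 at 16 w was 9.72, against 4.45 as summed. The part of mixed droplets in the endothelial level was not tested. In CPM, endothelial cells held 11.4% to 54.5% of the stromal level of the 9 genes apart from Acan in the injured library (6.94%), and 14.3% to 32.3% of that of Dcn, Comp, Fmod, Lum and Cilp, abundant fibroblast transcripts taken as a reference. Stromal cells were higher than endothelial cells for 9 of 9 genes at 3 d, 3 w, 16 w and in the injured library and for 8 of 9 at 78 w, against 18.2%, 22.5%, 19.3%, 21.3% and 19.4% of all genes that met the minimum of 100 UMIs in those libraries. The exception was Vcan at 78 w, at 74.6 against 40.6 CPM. In lining cells, Acan sat at the endothelial level at 3 d, 28.9 [24.6, 33.7] against 28.3 [24.8, 32.2] CPM, so in CPM it could not be told from background. At 16 w lining Acan overlapped the endothelial level, 10.2 [6.45, 15.3] against 7.86 [5.31, 11.2] CPM, and at 78 w it lay below the endothelial value, 17.0 [13.6, 20.9] against 24.2 [19.5, 29.6] CPM. Hapln1 at 3 d was likewise at 13.0 [10.2, 16.4] against 15.5 [12.9, 18.5] CPM. Per cell, lining cells held more Acan UMIs than endothelial cells: 0.353 against 0.199 (3 d), 0.162 against 0.0526 (16 w) and 0.297 against 0.139 (78 w). Hapln1 at 3 d was at 0.159 against 0.109 UMIs per cell. Lining cells were also deeper, with a median of 9926 against 5087.5 UMIs at 3 d. The part of free RNA in these lining levels was not tested.

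**Figure D1:**
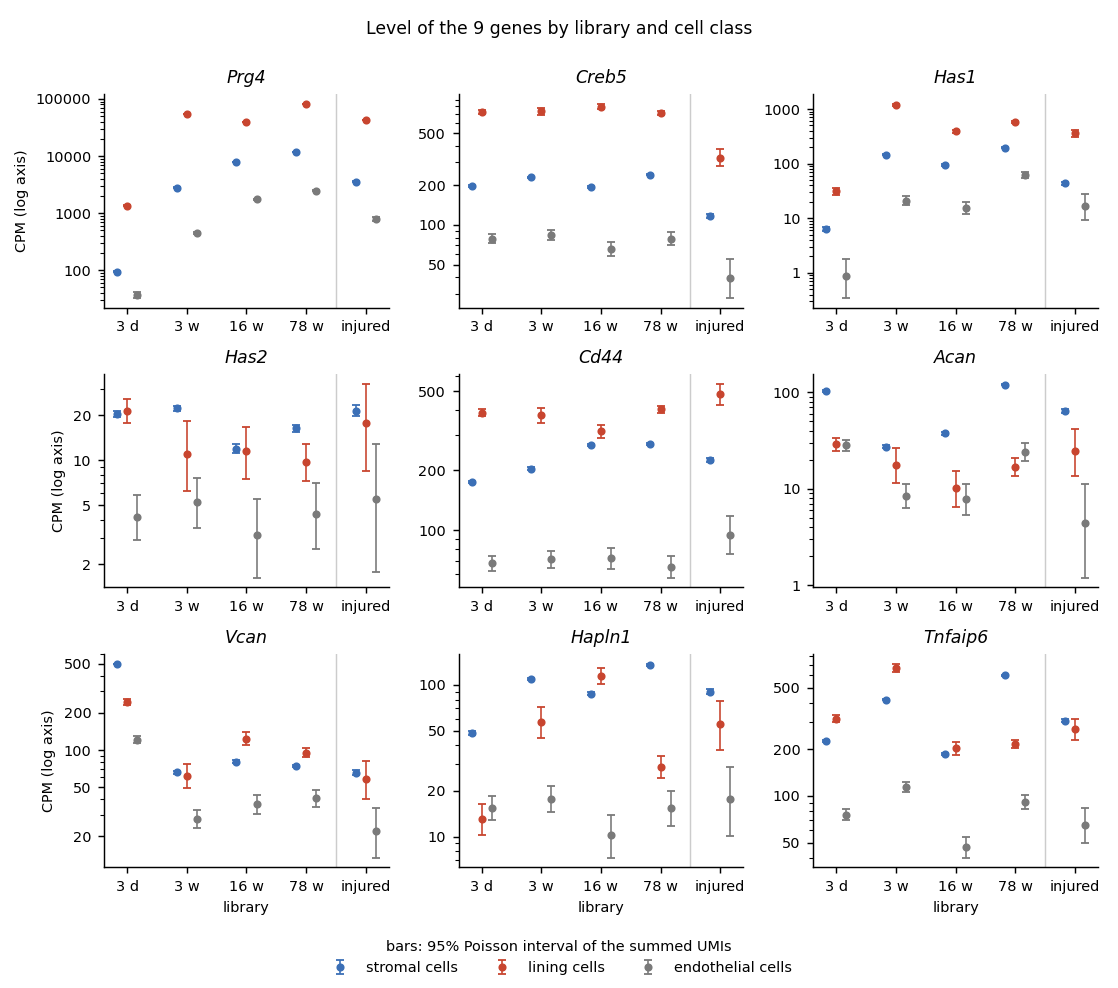
Level of each of the 9 genes (CPM, log axis) in stromal, lining and endothelial cells of the 5 libraries; points are sums over all cells of a class in 1 library and bars their exact 95% Poisson intervals. Prg4 and Has1 climb from 3 d to 3 w in both stromal and lining cells, Vcan drops, and lining points lie above stromal points for Prg4, Creb5 and Has1 in each library.

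Prg4 (ENSMUSG00000006014, chromosome 1, 150449412 to 150466165, minus strand, GRCm38) had the largest ratios of the 9 genes as pooled here, both between lining and stromal cells in each library and between 78 w and 3 d in each class. That order changed with stromal clusters weighted equally, where Has1 (66.8-fold) passed Prg4 (62.0-fold) at 78 w against 3 d, and in the 16 w lining without the deepest barcodes, where Creb5 (5.18-fold) and Has1 (4.08-fold) passed Prg4 (2.32-fold). In lining cells it stood at 1344 CPM at 3 d, 54572 at 3 w, 39389 at 16 w, 81361 at 78 w and 43120.1 in the injured library. In stromal cells the levels were 94.4, 2812, 7831, 11928 and 3582 CPM in the same order. The stromal level lay above the one before it at each step between unoperated libraries, whereas the lining level at 16 w lay below that at 3 w. The summed level of 8 chondrocytic markers in stromal cells also differed between libraries, at 109, 1706, 3519, 2301 and 1824 CPM. The sum does not describe each marker. In stromal cluster 1, described below, Chad stood at 2087, 4373 and 2705 CPM at 3 w, 16 w and 78 w. Col2a1 stood there at 31.5, 80.3 and 215 CPM. The part of these markers in the stage differences was not tested. Prg4 was higher in lining than in stromal cells in 5 of 5 libraries, by 14.2-fold [13.8, 14.7] at 3 d, 19.4-fold [19.2, 19.6] at 3 w, 5.03-fold [4.99, 5.07] at 16 w, 6.82-fold [6.80, 6.85] at 78 w and 12.0-fold [11.9, 12.2] in the injured library. The size of these ratios depended on which cells were called lining. With 2 or more lining genes they were 6.95 at 3 w, 3.14 at 16 w, 4.53 at 78 w and 7.61 in the injured library. The 16 w ratio was 7.91 in lining cells that also lay in the lining cluster and 2.32 without the 5% of barcodes with the most UMIs, and the 3 d ratio was 22.7 with the endothelial level subtracted.

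Prg4 increased with the number of lining genes a cell carried. Over stromal and lining clusters together, cells with 0, 1, 2, 3 and 4 or more of the 6 lining genes held 48.0, 215, 768, 1185 and 1873 CPM at 3 d. At 16 w the same steps were 7587, 8998, 12570.3, 14627 and 59416 CPM, so most of the difference lay between 3 and 4 genes. At 78 w they were 11492, 13579, 18320.5, 65351 and 93416 CPM, and in the injured library 3379, 5949, 12764, 32206 and 51993 CPM. The Prg4 steps were in the same order in each of the 5 libraries; cells with more lining genes also had more UMIs, and the part of depth in these steps was not tested. Creb5 at 3 d stepped from 177 through 262, 472 and 701 to 889 CPM, and in the injured library from 115 through 135, 196 and 274 to 361 CPM. Has1 at 3 w stepped from 143 through 151, 386 and 620 to 1684 CPM. Hapln1 at 78 w ran the other way at the end, with 129, 163, 158, 46.1 and 16.9 CPM.

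**Figure D2:**
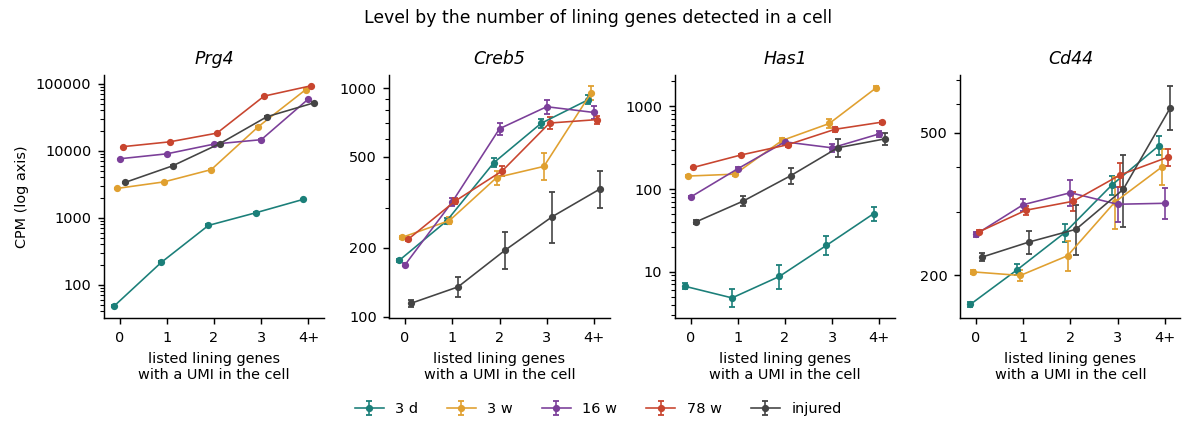
Level (CPM, log axis) against the number of synovial lining genes with a UMI in a cell (0 to 4 or more of 6), over cells of stromal and lining clusters, 1 line per library; bars are exact 95% Poisson intervals. Prg4 rises along the axis in each library, from 48.0 to 1873 CPM at 3 d and from 11492 to 93416 CPM at 78 w.

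Single cells differed in how evenly they carried Prg4. The tenth of stromal cells with the most Prg4 held 92.8% of the stromal Prg4 UMIs at 3 d, 46.0% at 3 w, 38.5% at 16 w, 37.9% at 78 w and 49.5% in the injured library. The median lining cell had 341, 36360, 9591, 65974 and 33212 CPM of Prg4 in the same order. The median lining cell therefore lay far below the class level at 3 d (341 against 1344 CPM) and at 16 w (9591 against 39389 CPM). At 16 w the tenth of lining cells with the most Prg4 exceeded 111528 CPM. With each cell thinned to 1000 UMIs, 4.84% [4.44, 5.26] of stromal cells held a Prg4 UMI at 3 d, 61.5% at 3 w, 82.2% at 16 w, 90.3% at 78 w and 68.8% in the injured library, against 2.73%, 7.97%, 20.5%, 29.5% and 21.8% of endothelial cells. The unthinned stromal shares were 16.3%, 89.6%, 96.0%, 98.5% and 84.6%. Thinning left out 49, 9, 17, 25 and 320 stromal and 165, 12, 18, 33 and 95 endothelial cells, those under 1000 UMIs. The median depth of all endothelial cells in a library was 1783 to 5759.5 UMIs. In thinned lining cells the shares were 42.0%, 92.9%, 95.1%, 98.6% and 98.96%. Lining cells held 41.4% of all Prg4 UMIs of the library at 3 d, 18.3% at 3 w, 12.3% at 16 w, 27.1% at 78 w and 17.9% in the injured library. Stromal cells held 51.6%, 78.5%, 85.7%, 70.2% and 73.5% in the same order, and the rest lay in other cells.

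Creb5 (ENSMUSG00000053007, chromosome 6, 53287270 to 53700376, plus strand), a CREB-family factor known to be needed for lubricin expression in synovial joints, was close to level in the lining of the unoperated discs. Its lining levels were 726 [704, 749], 735 [690, 782], 797 [760, 834] and 708 [686, 732] CPM in the unoperated libraries from 3 d to 78 w, while Prg4 in the same cells differed 60.5-fold [59.2, 61.9] between 3 d and 78 w. Stromal levels were 198, 230, 194 and 242 CPM. Creb5 was higher in lining than in stromal cells in 5 of 5 libraries, by 3.67-, 3.19-, 4.11-, 2.93- and 2.78-fold from 3 d to the injured library. Between stages Creb5 was called neither higher nor lower, with 78 w against 3 d at 1.22 [1.20, 1.25] in stromal and 0.976 [0.933, 1.02] in lining cells. Within each of the 3 stromal clusters described below, that ratio lay below 1, at 0.678, 0.779 and 0.881. At 1000 UMIs each, a Creb5 UMI was held at 3 d by 26.8% [23.0, 30.8] of the 515 stromal cells with a Prg4 UMI and by 17.1% [16.4, 17.9] of the 10131 without one. At 78 w the shares were 19.98% [19.1, 20.9] of 7502 and 15.7% [13.3, 18.4] of 808 cells. At 3 w they overlapped, at 21.2% [20.1, 22.4] and 19.0% [17.6, 20.5]. They were 16.4% and 10.2% at 16 w, and 11.9% and 8.54% in the injured library. Such a difference was not particular to Creb5. At 78 w the shares with and without a Prg4 UMI were 9.80% and 3.71% for Hapln1 and 8.13% and 3.34% for Acan. Has1 (13.4% and 17.8%) and Tnfaip6 (26.6% and 32.4%) went the other way there. At 3 d, Prg4 (273 CPM) and Creb5 (406 CPM) were both highest in stromal cluster 1, described below, and the part of clusters in these shares was not tested. Of 5 related factors, Atf2, Atf7, Creb1, Crem and Creb3l1, 0 were called between 78 w and 3 d in stromal cells.

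Has1 (ENSMUSG00000003665, chromosome 17, 17843323 to 17855205, minus strand) shared 2 features with Prg4. It was higher in lining than in pooled stromal cells and higher at 78 w than at 3 d. It stood at 6.37, 146, 94.5, 197 and 43.5 CPM in stromal cells and at 31.0, 1178, 395, 586 and 358 CPM in lining cells, from 3 d to the injured library. In lining cells the highest level was at 3 w and in stromal cells at 78 w. Has1 was higher in lining than in pooled stromal cells in 5 of 5 libraries, by 4.87-, 8.04-, 4.18-, 2.98- and 8.24-fold. Its level was not particular to the lining. In stromal cluster 3, the Pi16 cluster described below, it stood at 926, 364 and 782 CPM at 3 w, 16 w and 78 w. That was near the lining level at 3 w and 16 w and above it at 78 w. At 3 d and in the injured library cluster 3 lay below the lining, at 12.1 and 109 CPM. Has2 (ENSMUSG00000022367, chromosome 15, 56665627 to 56694539, minus strand), the synthase that makes longer chains in many mesenchymal tissues, shared neither feature. Its stromal levels were 20.3, 22.3, 12.0, 16.4 and 21.5 CPM and its lining levels 21.6, 11.1, 11.5, 9.75 and 17.7 CPM, the latter from 10 to 121 UMIs. It was lower in lining cells at 3 w, at 0.497 [0.278, 0.821] times the stromal level from 15 lining UMIs, a value that became 1.80 with every cell thinned to 1000 UMIs.

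Upstream of their starts, Creb5 and Has1 each carry one cyclic AMP response element, TGACGTCA, the palindrome that CREB-family dimers are known to bind. They are printed because these are the 2 members with a promoter entry that were higher in the lining in 5 of 5 libraries. The stretches are the 250 bases before the RefSeq start (GRCm38.p6), 5′ to 3′ on the strand of the gene, with the element in capitals. Creb5 is from chr6:53287053-53287302 (plus strand) and Has1 from chr17:17855189-17855438 (minus strand).
Creb5 promoter: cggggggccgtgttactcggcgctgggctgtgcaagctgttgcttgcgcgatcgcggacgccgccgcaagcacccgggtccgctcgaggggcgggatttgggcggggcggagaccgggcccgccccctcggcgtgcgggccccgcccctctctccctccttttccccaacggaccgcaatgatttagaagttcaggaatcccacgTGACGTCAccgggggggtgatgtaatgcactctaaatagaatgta
Has1 promoter: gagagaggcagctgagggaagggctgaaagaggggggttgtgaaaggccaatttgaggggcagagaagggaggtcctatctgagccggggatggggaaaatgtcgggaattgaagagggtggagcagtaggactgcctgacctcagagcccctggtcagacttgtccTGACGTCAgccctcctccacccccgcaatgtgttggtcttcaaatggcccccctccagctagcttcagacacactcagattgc
The element ends 38 bases before the start in Creb5 and 76 bases before it in Has1. The search, chosen after the levels had been seen, covered TGACGTCA (its own reverse complement) and TGAGTCA with its reverse complement TGACTCA (the AP-1 element) in 250 bases; TGACGTCA was present in 1.55% of 32851 RefSeq promoters and the AP-1 element in 4.46%. Counted by gene, over all starts of a gene, these shares were 1.77% and 5.16% of 27025 genes. Of the 7 members with an entry, the AP-1 element was present before Tnfaip6 and before a second start of Creb5, and neither before Acan, Cd44, Hapln1 or Vcan. A match describes the letters in the window and no binding was measured.

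Of 7 genes listed as hyaluronan synthesis besides the members, which make its sugar nucleotides or the chain, 5 were higher in lining than in stromal cells in 5 of 5 libraries. In single libraries, 1.87% (injured) to 7.47% (78 w) of all genes were higher in the lining. Gfpt2, which starts the hexosamine route, was 2.18 to 6.17 times the stromal level, with lining levels of 124, 523, 405, 491 and 435 CPM from 3 d to the injured library. Gnpnat1, the acetyltransferase of that route, was 4.88 to 9.51 times, with 179, 335, 179, 287 and 255 CPM. Uap1, which makes UDP-N-acetylglucosamine, was 2.18 to 3.39 times, and Ugp2, which makes UDP-glucose, 2.70 to 4.81 times. Ugdh, which oxidises UDP-glucose to UDP-glucuronic acid, was 3.19 to 7.97 times, with 347, 895, 523, 687 and 667 CPM in lining and 78.6, 112, 148, 215 and 157 CPM in stromal cells. Gfpt1, the other isoform of the first enzyme, ranged from 0.799 to 1.12 times the stromal level and was called in 0 libraries. Has3, the third synthase, had at most 19 UMIs in the stromal cells of any library. Itih5, an inter-alpha-trypsin inhibitor heavy chain of the family that is coupled to hyaluronan, was higher in the lining in 5 of 5 libraries as well, by 3.97-, 5.92-, 3.15-, 8.42- and 4.28-fold, but its endothelial level, 49.7 to 263 CPM, exceeded the stromal one in 4 libraries.

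Cd44 (ENSMUSG00000005087, chromosome 2, 102811141 to 102901665, minus strand) was called in none of the comparisons between stages, in either class. Its stromal levels were 175, 204, 267, 272 and 226 CPM and its lining levels 390, 379, 314, 406 and 484 CPM from 3 d to the injured library. Lining cells were higher at 3 d (2.23-fold) and in the injured library (2.14-fold), and at 1.86, 1.17 and 1.49 times the stromal level at 3 w, 16 w and 78 w. Macrophages held 486 to 678 CPM of Cd44, and the part of macrophage RNA in lining droplets was not tested.

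Tnfaip6 (ENSMUSG00000053475, chromosome 2, 52038009 to 52056686, plus strand) alternated in the stroma. Its stromal levels were 227 [224, 230] CPM at 3 d, 418 [414, 421] at 3 w, 187 [184, 190] at 16 w, 600.0 [595, 605] at 78 w and 305 [299, 312] in the injured library. The 16 w level was lower than at 3 w (0.448-fold), and the 78 w level higher than at 16 w (3.21-fold) and at 3 d (2.64-fold). In lining cells it stood at 316, 670, 202, 218 and 270 CPM, so at 78 w lining cells were lower than stromal cells, at 0.363 [0.341, 0.385] times. In the other 4 libraries the lining level was 0.883 to 1.60 times the stromal one.

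The aggregate-forming genes had other patterns, and Acan was the one lower in the lining in most libraries. Acan (ENSMUSG00000030607, chromosome 7, 79053483 to 79115099, plus strand) stood at 102, 27.4, 37.6, 120 and 63.6 CPM in stromal cells and at 28.9, 17.7, 10.2, 17.0 and 24.8 CPM in lining cells, from 3 d to the injured library. The stromal level was lower at 3 w than at 3 d, at 0.268 [0.257, 0.279] times, and higher at 78 w than at 16 w, by 3.18-fold [3.06, 3.32], so the 3 d and 78 w levels lay close, at a ratio of 1.17. Acan was lower in lining than in stromal cells in 4 of 5 libraries, at 0.282, 0.270, 0.142 and 0.391 times at 3 d, 16 w, 78 w and in the injured library, and at 0.648 [0.415, 0.966] times at 3 w from 24 UMIs. At 3 d, 16 w and 78 w, lining Acan in CPM overlapped the endothelial level or lay below it. Lining cells there held more Acan UMIs per cell than endothelial cells. With the endothelial CPM subtracted the ratios were 0.00771, 0.0774 and 0.00612, which counts all of that CPM as free RNA. The 0.00612 at 78 w rests on a lining value set to a floor of 3 UMIs, because that lining level lay below the endothelial one. At 16 w the ratio was 0.716, which ends the call, with every cell thinned to 1000 UMIs, and in the injured library 0.626. In lining cells that also lay in the lining cluster the 5 ratios were 0.138, 0.122, 0.104, 0.0222 and 0.110.

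Hapln1 (ENSMUSG00000021613, chromosome 13, 89539796 to 89611652, plus strand) stood at 48.1, 109, 87.5, 136 and 89.9 CPM in stromal and 13.0, 56.9, 115, 28.9 and 55.0 CPM in lining cells. Lining cells were lower at 3 d (0.271-fold) and 78 w (0.213-fold), and at 0.523, 1.31 and 0.612 times the stromal level at 3 w, 16 w and in the injured library. With the lining cluster required as well, the 78 w ratio was 0.0428 and the 16 w ratio 0.924.

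Vcan (ENSMUSG00000021614, chromosome 13, 89655312 to 89742509, minus strand, beside Hapln1) was the one member that was lower at 78 w than at 3 d in both classes. Its stromal levels were 498 [494, 503] CPM at 3 d and 65.9, 80.4, 74.6 and 65.6 CPM in the other 4 libraries, and its lining levels 247, 62.1, 124, 95.5 and 58.5 CPM. The ratio of 78 w to 3 d was 0.150 [0.146, 0.154] in stromal and 0.387 [0.349, 0.429] in lining cells. Lining cells were lower than stromal cells at 3 d, at 0.495 [0.469, 0.522] times, and lay at 0.893 to 1.54 times in the other libraries.

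**Figure D3:**
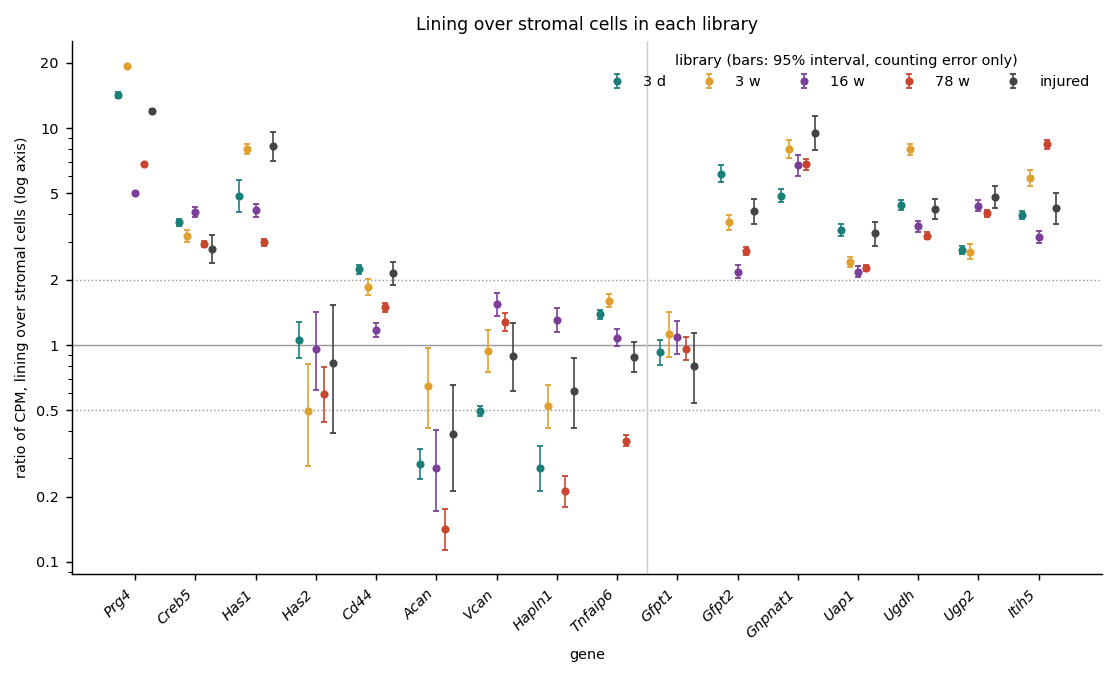
Ratio of the lining to the stromal level of each gene within a library (log axis), with exact 95% intervals; dashed lines mark ratios of 2 and 0.5. Prg4, Creb5 and Has1 lie above 2 in 5 of 5 libraries, Acan lies below 0.5 in 4 of 5, and the ratios of Hapln1, Vcan and Tnfaip6 change sides between libraries.

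Counted over the 9 genes, lining cells were higher than stromal cells for 4 genes and lower for 3 at 3 d, against 6.28% and 10.2% of all genes with enough UMIs in that library. At 3 w, 3 were higher and 1 lower, against 5.2% and 11%. At 16 w, 3 were higher and 1 lower, against 4.14% and 10.6%. At 78 w, 3 were higher and 3 lower, against 7.47% and 15.3%. In the injured library, 4 were higher and 1 lower, against 1.87% and 13.2%. Of the 45 pairs of gene and library, 17 were higher and 9 lower, and the 15 pairs of Prg4, Creb5 and Has1 were all among the 17.

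Between stages, 3 of the 9 genes (Prg4, Has1 and Hapln1) were higher at 3 w than at 3 d in stromal cells and 2 (Acan and Vcan) lower, against 16.5% and 18.8% of all genes; Hapln1 lost its call, at 0.985, with stromal clusters weighted equally. From 3 w to 16 w, Prg4 was higher (2.78-fold) and Tnfaip6 lower, 1 gene each way, against 5.07% and 5.88%. From 16 w to 78 w, 3 genes (Acan, Has1 and Tnfaip6) were higher and 0 lower, against 2.12% and 1.28%. Over the whole span, 78 w against 3 d, 4 were higher and 1 lower, against 14.3% and 21%: Prg4 by 126-fold [124, 129], Has1 by 30.9-fold [28.5, 33.5], Hapln1 by 2.82-fold [2.73, 2.92] and Tnfaip6 by 2.64-fold on the one side, Vcan on the other. The median log2 ratio of the 9 genes in that comparison was 0.64, against -0.17 over all genes. In lining cells over the same span, 3 were higher (Prg4; Has1, by 18.9-fold [16.2, 22.2]; Hapln1, by 2.22-fold [1.67, 2.98]) and 2 lower (Vcan; Has2, at 0.452 [0.319, 0.634] times), against 9.03% and 11.2% of all genes, with a median log2 ratio of -0.04 against -0.10. The Hapln1 ratio is over a 3 d lining level that overlapped the endothelial one in CPM. With the endothelial level subtracted, the 3 d lining level, which lay below the endothelial one, was replaced by a floor of 3 UMIs. The ratio of 25.1 then obtained is set by that floor and is not a measured fold difference. The call was lost, at 0.993, when the whole lining cluster was taken in place of the 3-gene rule.

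Cells of the stroma fell into 3 clusters, formed without the 9 genes and led by Cytl1, Ibsp, Chad and Col2a1 (cluster 1), Coch, Spp1, Kera and Tnmd (cluster 2) and Pi16, Clec3b, Eln and Mfap5 (cluster 3). Cluster 1 was 6.83% of stromal cells at 3 d and 62.4% to 70.5% in the other libraries, so pooled stromal levels at 3 d describe mainly clusters 2 and 3. The members divided between them. Prg4 and Hapln1 were at their highest in cluster 1 in 5 of 5 libraries, and Acan in 4 of 5. Has1, Has2, Vcan and Tnfaip6 were at their highest in cluster 3, the Pi16 cluster, in 5 of 5 libraries, and Cd44 in 4 of 5. Has1 in cluster 3 stood at 12.1, 926, 364, 782 and 109 CPM from 3 d to the injured library, and in cluster 1 at 2.03, 43.4, 75.8, 121 and 35.5 CPM. Tnfaip6 in cluster 3 stood at 303, 1861, 464, 1273 and 693 CPM. Hapln1 in cluster 1 stood at 120.0, 143, 113, 174 and 121 CPM, with 13.4 to 28.2 CPM in cluster 3. So the 2 hyaluronan synthases and the gene that decorates hyaluronan shared the cluster in which the link protein was at its lowest.

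**Figure D4:**
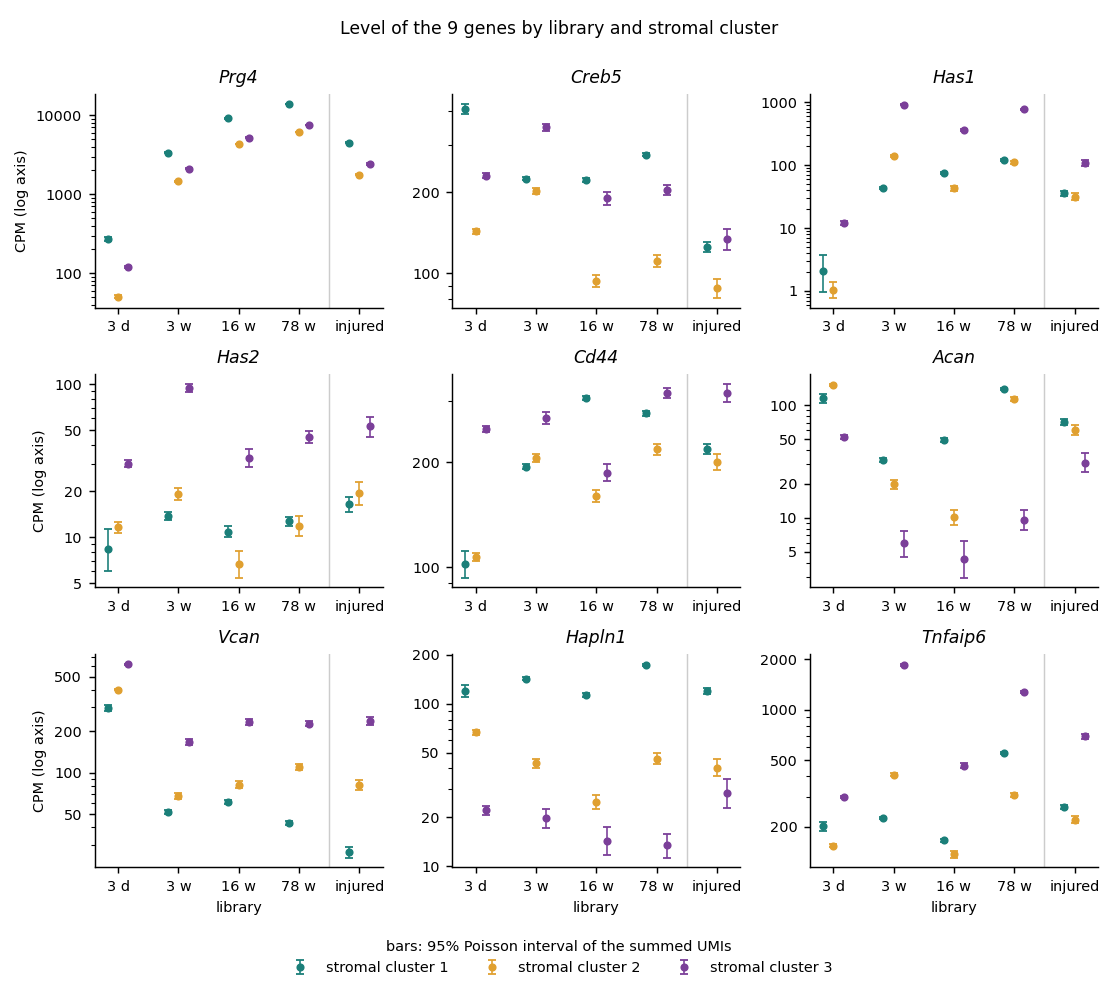
Level (CPM, log axis) of the 9 genes in the 3 stromal clusters, 1 point per cluster and library with its exact 95% Poisson interval. Has1, Has2, Vcan and Tnfaip6 are highest among the stromal clusters in cluster 3 and Prg4 and Hapln1 in cluster 1, in each of the 5 libraries.

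Within each of the 3 clusters, Prg4, Has1, Vcan and Tnfaip6 differed by more than 2-fold between 3 d and 78 w in the direction of the pooled stroma. Prg4 at 78 w was 50.8, 120 and 62.8 times its 3 d level in clusters 1, 2 and 3, and Has1 59.5 [32.3, 124], 107 and 64.6 times, the first from 10 UMIs at 3 d. Vcan was at 0.145, 0.272 and 0.370 times, and Tnfaip6 at 2.74, 2.02 and 4.21 times. With the 3 clusters given equal weight, Prg4 was 62.0-fold and Has1 66.8-fold higher at 78 w than at 3 d and Vcan stood at 0.289 times. Hapln1 did not keep its call: within clusters its ratios were 1.45, 0.688 and 0.606, and with equal weights 1.12, so its pooled difference moved with the share of cluster 1. Cd44, called in no pooled comparison of stages, was at 2.71, 2.03 and 1.27 times within clusters. Acan within cluster 3 was at 0.184 times its 3 d level (52.4 against 9.63 CPM), against 1.21 in cluster 1. Creb5 within clusters was at 0.678, 0.779 and 0.881 times, below 1 in each, although its pooled stromal ratio was 1.22.

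Over 35 points, 7 classes in each of 5 libraries, which share their libraries and their free RNA, the 3 genes whose log2(CPM + 5) followed Prg4 most closely were Gfpt2 (Pearson r = 0.92), Scara3 (0.91) and Ackr3 (0.90). Among the members, Has1 was nearest to Prg4 (0.83), and Vcan (-0.22) and Acan (-0.13) were farthest. For Acan the nearest were Tnn (0.84), Emilin1 (0.82) and Col27a1 (0.82), with Hapln1 at 0.60. For Vcan they were Mmp16 (0.89), Asphd2 (0.86) and Ptov1 (0.85). These are descriptions of likeness in level.

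Of 53 other genes of the pathway (synthesis, degradation, receptors, cross-linking, lectican partners and proteases, and CREB relatives), 40 had enough UMIs in the stromal comparison of 78 w with 3 d; 14 were higher and 7 lower, against 14.3% and 21% of all genes. On the synthesis side, Gfpt2 was 9.02-fold, Uap1 6.08-fold and Ugdh 2.74-fold higher. Among receptors and ligands, Tlr2, a pattern receptor that can bind hyaluronan fragments, was 6.30-fold higher (17.8 to 112 CPM), and Icam1 4.94-fold, though Icam1 was 802 CPM in endothelial cells at 78 w, above the stromal 181. Hmmr, a hyaluronan-binding protein of dividing cells, was lower, with 2211 UMIs at 3 d and 4 at 78 w. Cemip, which is needed for hyaluronan breakdown in skin and joint cells, was 4.67-fold higher (5.00 to 23.4 CPM). Adamts5, the main aggrecanase of mouse cartilage, was 11.4-fold higher (12.4 to 141.5 CPM) in stromal and 31.6-fold [23.0, 44.4] in lining cells, whereas Adamts15, a versican-cleaving relative, was at 0.101 times (6.22 to 0.630 CPM). Fbn1 (fibrillin-1), to which versican binds, was at 0.149 times, close to the 0.150 of Vcan. Itih2, another heavy chain gene, was 28.0-fold [16.1, 53.1] higher, from 13 UMIs at 3 d.

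In the injured library, Has1 in stromal cells and Creb5 in lining cells were called lower than in both unoperated libraries beside it. Has1 was lower in stromal cells than at either age, at 0.297 [0.280, 0.315] times 3 w and 0.460 [0.433, 0.489] times 16 w; the latter reached 0.530 with size factors from the median of ratios, which ends the call. Creb5 was lower in lining cells than in either, with 326 [281, 377] CPM from 184 UMIs against 735 and 797 CPM, or 0.444 [0.377, 0.520] and 0.410 [0.350, 0.477] times. The lower Creb5 level was not particular to the lining. Macrophages held 73.0 CPM in the injured library, against 221 and 219 CPM at 3 w and 16 w. Mural cells held 28.7 CPM, from 9 UMIs, against 137 and 120 CPM. Endothelial cells held 39.7 CPM against 83.8 and 65.8 CPM. Has1 was the 1 gene of the 9 called lower against both in stromal cells and Creb5 the 1 gene in lining cells, and 0 were higher against both. The share of all genes lower against both was not computed, so these counts are not read as particular to the members. Against 3 w, 1 of 9 genes was higher in stromal cells and 1 lower, beside 5.03% and 17.5% of all genes; against 16 w, 0 were higher and 2 lower, beside 5.84% and 14.3%. In lining cells, 5 of 9 genes had enough UMIs against 3 w, of which 0 were higher and 3 lower, beside 5.8% and 16.6% of all genes; against 16 w, 7 had enough, of which 0 were higher and 3 lower, beside 3.85% and 21.5%. More genes were lower than higher over the whole injured library, which was the shallowest (31585993 UMIs, against 88998394 to 125427849 in the others); the part of depth was not tested. The summed macrophage markers in stromal cells were 80.7 CPM in the injured library and 11.4 to 24.5 CPM in the others, and their part was not tested either.

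**Figure D5:**
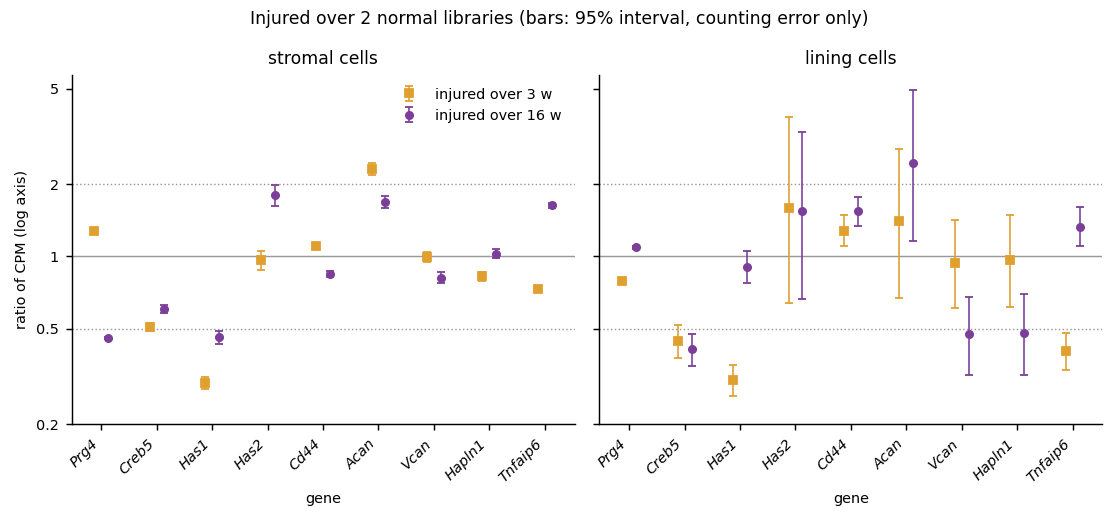
Ratio of the injured library to 3 w and to 16 w (log axis) for each gene in stromal and in lining cells, with exact 95% intervals; dashed lines mark 2 and 0.5. Has1 in stromal and Creb5 in lining cells lie below 0.5 against both unoperated libraries, and Prg4 in stromal cells lies between them, at 1.27 and 0.457.

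Prg4 in stromal cells of the injured library, 3582 CPM, lay between 3 w and 16 w (1.27 and 0.457 times), and so did its lining level of 43120.1 CPM (0.790 and 1.09 times). Acan was higher than at 3 w (2.32-fold [2.19, 2.46]) and at 1.69 times the 16 w level in stromal cells. Within stromal clusters Acan was at 2.17, 3.04 and 5.22 times 3 w and at 1.44, 5.99 and 7.11 times 16 w, in clusters 1, 2 and 3. The last value rests on 105 against 30 UMIs. Has1 within clusters was at 0.818, 0.227 and 0.117 times 3 w and at 0.468, 0.743 and 0.298 times 16 w, so the lowest ratios were in cluster 3, where its level was highest: 109 CPM after injury against 926 and 364. Tnfaip6 in lining cells was lower than at 3 w (0.403-fold) and at 1.33 times 16 w. Hapln1 and Vcan in lining cells were lower than at 16 w, at 0.480 [0.320, 0.699] and 0.473 [0.319, 0.680] times, from 31 and 33 UMIs in the injured library, and near the 3 w level, at 0.966 and 0.943 times. Cd44 in lining cells was at 1.28 and 1.54 times. At 1000 UMIs per cell, 25% [16.7, 34.9] of injured lining cells held a Creb5 UMI, against 42.9% [31.1, 55.3] at 3 w and 52.1% [43.6, 60.6] at 16 w, and 3.26% to 6.49% of endothelial cells in those libraries. The unthinned shares in lining cells were 64.0%, 100% and 97.9%. Over the alternatives, Creb5 in lining cells stood at 0.372 to 0.583 times 3 w and 0.338 to 0.462 times 16 w; the call against 3 w was lost with thinned cells and, at 0.580, with 2 or more lining genes. In stromal cells Creb5 was at 0.510 and 0.605 times, and Has2 at 0.965 and 1.80 times.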

How the data were processed

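Discs were digested with Pronase and Collagenase P and sequenced with the 10x 3′ kit; the authors aligned reads to mm10 with Cell Ranger (3.1 per the labels, 4.0.0 per the file headers) and deposited counts of UMIs per gene and barcode as filtered matrices. No doublet removal is described in the sources used here, and none was done. Barcodes with over 30% of UMIs from mitochondrial genes were left out. A limit of 200 UMIs was also set, but it removed none, because the lowest deposited barcode of each library held 500 to 502 UMIs. Clusters came from Seurat 5.3.0 (R 4.3.3; 2000 variable features of which 1968 remained without the pathway genes and members, integration across libraries, 30 dimensions, resolution 0.2; 11 clusters) and were named by marker lists. The lining genes were not excluded from the features. UMIs were summed per class and library (Python 3.11.15, numpy 2.4.6, scipy 1.17.1, pandas 2.3.3) and given as CPM with exact Poisson intervals; ratios have exact conditional binomial intervals and shares Clopper-Pearson intervals, at 95%. The ratio step was tested on simulated Poisson counts without spread between cells or libraries, so that test covers counting error only. The members, the lining genes and the pathway lists were chosen with earlier results of these data known; the strata by number of lining genes, the motif search, the within-cluster ratios and the 2 lining definitions that use the lining cluster were added after the levels had been seen. Named pathway genes were those with at least 100 UMIs and a ratio of at least 4 or at most 0.25 between 78 w and 3 d in stromal cells, or between lining and stromal cells in at least 3 libraries, and each gene of the synthesis group. Of 54 pathway names, 53 were found. Alternatives changed the cell filter, the scaling, the depth per cell, the clustering, the lining rule, the fold limit and the UMI minimum, left out the deepest 5% of barcodes or subtracted the endothelial level. How many animals entered each library is not given in the sources used here. Promoters of Prg4 and Has2 are not analysed here.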

Additional observations from a re-analysis of the deposited data

Results flagged for a closer look

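In 6 cases the lining level of a gene moved one way between 2 libraries and its stromal level the other way, with both counting intervals off 1, the 2 ratios at least 2-fold apart and at least 100 UMIs on the higher side in each class; other opposite pairs did not meet these limits. Each side rests on 1 library per condition, and the difference was not tested. Prg4 from 3 w to 16 w stood at 0.722 times in lining and 2.78 times in stromal cells; over the 13 alternatives the lining value ran from 0.301 to 1.25. Prg4 in the injured library against 16 w stood at 1.09 in lining and 0.457 in stromal cells, with lining values from 0.836 to 2.69. Tnfaip6 at 78 w against 3 d stood at 0.689 and 2.64, with lining values from 0.437 to 1.18. Hapln1 stood at 2.01 in lining and 0.804 in stromal cells from 3 w to 16 w (lining range 1.17 to 3.31), and at 0.252 and 1.55 from 16 w to 78 w (0.0714 to 0.684), so the pair traces a lining level that was highest at 16 w while the stromal level was not; 16 w was also the library in which the smallest share of lining cells, 52.8%, fell in the lining cluster. Has2 from 3 w against 3 d stood at 0.514 in lining and 1.10 in stromal cells, from 15 lining UMIs at 3 w (0.335 to 3.90). Of these, the lining values of Hapln1 kept their side of 1 over the alternatives, and those of Prg4, Tnfaip6 and Has2 crossed it.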

How the results depend on the processing

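No paired analysis was possible because each condition was 1 library, and the replicate number 1 that all libraries carry was given in accession order. Of 2070 ratios recomputed over the alternatives, 1170 stayed within the counting interval, 897 moved outside it and 3 were counted as turned around. Those 3 were past the 2-fold limit as reported and crossed 1. Has2 in lining against stromal cells at 3 w became 1.80 with cells thinned to 1000 UMIs (0.497 as reported). Hapln1 at 3 w against 3 d in stromal cells became 0.985 with clusters weighted equally (2.26). Hapln1 at 78 w against 3 d in lining cells became 0.993 with the lining cluster in place of the 3 genes (2.22). Ratios inside the 2-fold limit also crossed 1 and were not counted as turned around. Among these were lining Prg4 at 16 w against 3 w (0.722, up to 1.25) and lining Tnfaip6 at 78 w against 3 d (0.689, up to 1.18). Of the counts, 151 recomputed values stayed and 23 moved. Members lower in lining cells at 78 w against 3 d, 2 as reported, became 1 without the 5% of barcodes with the most UMIs, with 2 or more lining genes, by cluster, and with 3 genes and the cluster, and 0 with thinned cells or at a 4-fold limit. For the injured stroma, genes higher against both became 1 with equal weight for every cell and at a limit of 1.5, and genes lower against both, 1 as reported, became 2 at a limit of 1.5 and 0 with thinned cells, with size factors from the median of ratios, or at 4-fold. In injured lining cells the 1 lower gene became 0 with thinned cells, at 4-fold, or with 2 or more lining genes. Of the pairs of gene and library, the 17 higher in the lining became 10 with thinned cells and 10 at 4-fold, and the 9 lower became 2 at 4-fold, 4 with 2 or more lining genes, 14 with 4 or more, and 14 with 3 genes and the cluster. At 4-fold, genes higher at 78 w against 3 d in stromal cells became 2 (4 as reported), and stromal pairs above endothelial cells 21 (44). Depth limits the lining of the 3 w and injured libraries most, where 70 and 100 cells leave Has2 at 15 and 10 UMIs, Acan at 24 and 14, and most pathway genes under 100 UMIs.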
